A study of Mus musculus with 18 samples.

Results

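The genes described are 10 mouse genes that bear on ferroptosis and oxidative stress: Gpx4, Acsl4, Aifm2, Ftl1, Fth1, Hmox1, Nqo1, Gclc, Gclm and Txnrd1. Most act in defence, but Acsl4 supplies the lipids that peroxidise. All 10 were taken by gene symbol from the 32941 genes listed in each of 4 expression tables. Each had a row in every table. The study measured RNA by sequencing in 18 mouse libraries and asked how peroxisomal ether lipid synthesis bears on the formation of cortical neurons. Wild-type embryonic brain was represented by a single library each for days 11, 12, 13, 14, 16 and 18. The labels call this tissue brain, and the design text calls it cortex and mentions triplicates.

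The other 12 libraries formed 3 comparisons with 2 libraries per group. In primary neural stem cells, a short hairpin RNA against Pex7 (NSC-Pex7sh, labelled PEX7-knockdown) was set against a scrambled hairpin in wild-type cells (NSC-Scramble). A first overexpression set compared PLA1, labelled brain with PLAAT3-PEX11 overexpression, with wild-type brain Ctrl1. The neuron overexpression set compared Neuron-PLA, with the same label, with wild-type Neuron-ctrl. Embryonic age, delivery, promoter and the cells that received the constructs were not given for these 12 libraries in the sources used here. No label states that the libraries of a group were made from different animals or cultures, and the p-values reflect library spread that could be technical.

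Ferroptosis is a form of cell death in which iron drives the peroxidation of polyunsaturated membrane phospholipids. Cells resist it by reducing lipid peroxides with glutathione, by regenerating radical-trapping quinones in membranes, and by locking iron into ferritin. Peroxisomes make ether phospholipids, whose polyunsaturated forms are among the lipids that can be peroxidised. PEX7 is the receptor that imports an enzyme of ether lipid synthesis into peroxisomes, PLAAT3 is a phospholipase, and PEX11 proteins promote peroxisome division. Several of the 10 genes are known targets of NRF2, the transcription factor encoded by Nfe2l2 that responds to oxidants and electrophiles.

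The values were RPKM, reads per kilobase of exon scaled to the read total of the library, so levels of different genes can be compared with each other, while levels set across tables compare values normalised separately. Whole reads recovered from the RPKM gave library totals of 16147911 to 28104927 reads in the 12 perturbation libraries and 41501880 to 54373317 reads in the stages. Changes are differences of log2(RPKM + 1), which understates the change of genes with low RPKM. They were tested with limma on all genes that averaged at least 1 RPKM in the libraries compared, and a gene was called at a Benjamini-Hochberg adjusted p under 0.05. The labels were checked on their targets. Pex7 had 0.500 and 0.669 RPKM in NSC-Pex7sh, against 1.19 and 1.22 RPKM in NSC-Scramble. Plaat3 had 31.4 and 29.1 RPKM in PLA1 against 0.413 and 0.431 RPKM in Ctrl1. In the neuron set, Neuron-PLA had 19.0 and 20.8 RPKM of Plaat3 against 0.0699 and 0.230 RPKM in Neuron-ctrl. The libraries labelled neural stem cells also held neuronal markers, with a summed level of 750 to 970 RPKM over 9 markers, and oligodendrocyte lineage markers at 216 to 428 RPKM over 6. These were bulk libraries, in which fewer cells of a type and less RNA per cell cannot be told apart.

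The 3 genes that bear on lipid peroxidation, Gpx4, Acsl4 and Aifm2, differed widely in level. Gpx4 encodes the selenoprotein that reduces peroxidised phospholipids with glutathione, and lies at chr10:80047166-80056439 on the plus strand of mm10. It had 71.4 to 100 RPKM in the 6 stages, 44.2 to 48.2 RPKM in the 4 neural stem cell libraries, and 25.5 to 60.2 RPKM in the 8 overexpression and control libraries. Gpx4-ps2, a pseudogene copy by its symbol, was listed at 0.338 to 0.521 of the Gpx4 level in all 18 libraries. How the counting divided reads between them is not given in the sources used here. Acsl4 (chrX:142317993-142390535, minus strand) encodes the ligase that activates arachidonic and adrenic acids for entry into phospholipids, and so supplies the lipids that peroxidise. Its level was 1.49 to 3.28 RPKM in the stages, 12.7 to 15.2 RPKM in neural stem cells and 5.23 to 8.48 RPKM in the overexpression and control libraries. The stage levels of Acsl4 thus lay below every perturbation library, the reverse of Gpx4.

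Aifm2 (chr10:61715263-61739260, plus strand) encodes FSP1, which reduces coenzyme Q at the plasma membrane. Its level divided the libraries by table, with 10.5 to 14.4 RPKM in the stages and 0.424 to 0.845 RPKM in the other 12 libraries. The last 233 bases of its exons, chr10:61739028-61739260, overlap exons of Macroh2a2, a protein-coding histone gene on the opposite strand. Macroh2a2 had 84.8 to 133 RPKM in the stages and 71.8 to 227 RPKM in the other libraries, so its own level did not divide by table. That level cannot show how many of its reads were counted for Aifm2. The level of Aifm2 relative to Macroh2a2 was 0.101 to 0.129 in the stages and 0.00187 to 0.0118 elsewhere. Whether the counting used strand is not given in the sources used here, so reads of Aifm2 and its antisense partner in that stretch cannot be told apart, and the part of strand in the division was not tested.

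**Figure D1:**
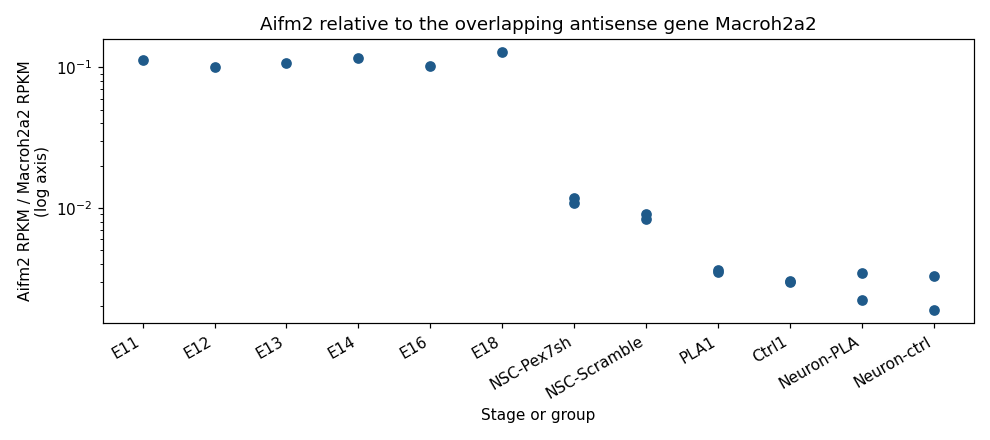
Level of Aifm2 divided by that of Macroh2a2, from RPKM, on a log axis, with 1 point per library for the 6 embryonic stages and the 6 perturbation groups. The stages lie at 0.101 to 0.129 and all other libraries at or below 0.0118.

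The ferritin mRNAs were the most abundant of the 10 in every library. Ftl1 (chr7:45457944-45459884, minus strand) encodes the light chain, which helps iron to mineralise inside the ferritin shell, and Fth1 (chr19:9980598-9985098, plus strand) encodes the heavy chain, which oxidises iron on entry. Ftl1 had 878 to 1429 RPKM in the stages, 335 to 351 RPKM in neural stem cells and 1811 to 3040 RPKM in the overexpression and control libraries. Fth1 had 90.8 to 173 RPKM in the stages, 117 to 127 RPKM in neural stem cells and 282 to 520 RPKM in the overexpression and control libraries. The ratio of the Ftl1 to the Fth1 level was lowest in neural stem cells, at 2.76 to 2.87, and ran from 5.08 to 12.2 over the stages. Ftl1-ps2, a pseudogene copy by its symbol, was listed at 2.45 to 93.8 RPKM, below Ftl1 in every library. How the counting divided reads between them is not given in the sources used here, so the Ftl1 level carries an uncertainty of assignment. A predicted gene on the opposite strand, Gm10252, overlaps 355 exon bases of Ftl1 but was not among the genes listed.

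Both ferritin mRNAs carry an iron-responsive element in the 5′ UTR, a hairpin that iron regulatory proteins bind when iron is scarce and that then blocks translation. The elements are shown because the ferritin results below are RNA levels, on which this element is not known to act directly. They come from the GENCODE M21 transcripts on GRCm38, with the 6-base CAGTGN loop in capitals. That of Ftl1 lies at chr7:45459778-45459807 on the minus strand and that of Fth1 at chr19:9982732-9982761 on the plus strand, and 26 of their 30 bases are identical.
Ftl1: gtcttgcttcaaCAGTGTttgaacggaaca
Fth1: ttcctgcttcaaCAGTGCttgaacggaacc

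Hmox1 (chr8:75093621-75100589, plus strand) encodes heme oxygenase 1, which opens heme to biliverdin and releases its iron. It had 2.57 to 4.69 RPKM in the stages, 16.1 to 18.1 RPKM in neural stem cells, 18.4 to 28.0 RPKM in the first overexpression set and 2.92 to 6.99 RPKM in the neuron set. Gclc (chr9:77754535-77794485, plus strand) and Gclm (chr3:122245557-122270732, plus strand) encode the catalytic and modifier subunits of glutamate-cysteine ligase, the rate-limiting enzyme of glutathione synthesis. Both were highest in neural stem cells, at 15.0 to 18.0 RPKM for Gclc and 6.99 to 8.44 RPKM for Gclm, and lowest in the overexpression sets, at 1.09 to 4.83 and 0.704 to 2.53 RPKM. The stages lay between, at 6.17 to 10.6 RPKM for Gclc and 4.50 to 5.72 RPKM for Gclm, with no overlap with either. Gclm shares exon bases with 2 predicted genes, 1 of them antisense.

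Txnrd1 (chr10:82833951-82897712, plus strand) encodes the cytosolic thioredoxin reductase, a selenoprotein, and had 20.0 to 34.3 RPKM in the stages, 32.2 to 39.9 RPKM in neural stem cells and 16.5 to 23.0 RPKM in the overexpression and control libraries. Nqo1 (chr8:107388225-107403206, minus strand) encodes a quinone reductase and was at the edge of measurement, at 0.319 to 2.36 RPKM in all 18 libraries. Its lowest value, in PLA1 replicate 1, rested on 8 reads, with an exact 95% Poisson interval of 0.138 to 0.629 RPKM that covers counting error only.

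NRF2 binds antioxidant response elements, whose core can be written TGACNNNGC. A search of both strands in windows of 250 bases before to 50 after each start, from RefSeq on GRCm38.p6, found that core at 2 of the 8 members with a window, Gclm and Txnrd1. Hmox1 and Gclc had no window and were not searched. The same core was present in 12.4% of all 32851 windows and at 14% of genes in at least 1 window, and a match is a description of the letters, not of binding. The bases around both matches are shown, with the core in capitals as it reads on the strand printed, and neither gene was called in any comparison of treated with control libraries. The Gclm stretch is chr3:122245383-122245471 and the Txnrd1 stretch chr10:82859074-82859162, both on the plus strand.
Gclm: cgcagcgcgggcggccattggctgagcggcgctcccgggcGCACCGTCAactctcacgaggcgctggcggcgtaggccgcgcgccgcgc
Txnrd1: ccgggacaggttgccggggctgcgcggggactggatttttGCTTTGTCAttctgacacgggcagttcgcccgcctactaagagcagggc

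In the developing brain, 3 of the 9 members tested fell over the 6 stages and none rose, while 25.5% of the 12921 genes tested fell and 19.6% rose. The 3 were Gclc, Hmox1 and Txnrd1, which each lost a little under 0.1 log2 units per day. Gclc had 10.2, 10.6, 9.19, 8.32, 7.68 and 6.17 RPKM at days 11, 12, 13, 14, 16 and 18. Hmox1 had 4.69, 3.92, 4.38, 3.40, 2.77 and 2.57 RPKM, and Txnrd1 had 34.0, 34.3, 29.5, 27.4, 28.3 and 20.0 RPKM over the same days. All 3 had their lowest level at day 18, and none fell at every step. The slope in log2(RPKM + 1) was −0.096 per day for Gclc (SE 0.020, limma adjusted p = 0.00816), −0.099 for Hmox1 (SE 0.024, adjusted p = 0.0127) and −0.096 for Txnrd1 (SE 0.023, adjusted p = 0.0139). Each call was lost without the day 18 library, at an adjusted p of 0.0909 for Gclc, 0.0645 for Hmox1 and 0.197 for Txnrd1. The slopes were then −0.086 for Gclc, −0.115 for Hmox1 and −0.063 for Txnrd1, so that of Hmox1 was no weaker. Over all genes, 2537 were called without that library, against 5828 with it. The Hmox1 call was also lost with limma-voom on recovered reads, at an adjusted p of 0.0518.

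The ferritin chains ran in different directions over the stages without passing the test. Ftl1 had 1429, 1104, 1093, 1213, 971 and 878 RPKM and a slope of −0.082 per day (SE 0.029, limma adjusted p = 0.0518). Fth1 had 131, 90.8, 111, 113, 125 and 173 RPKM, lowest at day 12 and highest at day 18, and a slope of 0.081 per day (adjusted p = 0.113). Without the day 11 library the Fth1 slope was 0.135 per day and passed, at an adjusted p of 0.00803, and without the day 12 library that of Ftl1 passed at 0.0401. The ratio of Ftl1 to Fth1 was 10.9 at day 11, 12.2 at day 12 and 5.08 at day 18. Summed levels of erythroid markers, genes of blood cells that also handle iron, moved over the same stages between 253 and 6749 RPKM, and their part in the ferritin values was not tested.

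Among the genes that bear on lipid peroxidation, Gpx4 showed no straight trend. It had 100, 71.4, 75.0, 82.9, 72.1 and 84.9 RPKM at days 11, 12, 13, 14, 16 and 18. Acsl4 had 3.28, 2.64, 1.96, 1.67, 1.49 and 3.26 RPKM, so that it was lower at each stage up to day 16 and at day 18 was back near its day 11 level. A straight slope cannot describe that shape, and without the day 18 library the Acsl4 slope was −0.158 per day with an adjusted p of 0.0398. Aifm2 had 14.4, 13.4, 12.6, 12.8, 10.5 and 10.9 RPKM (adjusted p = 0.0528), Gclm stayed within 4.50 to 5.72 RPKM, and Nqo1 had 1.22 RPKM at day 11, 0.375 RPKM at day 13 and 0.876 RPKM at day 18 and was under the filter. The profile most like that of Gpx4 after centring was that of Cinp, with a root mean square difference of 0.0243 log2 units over the 6 stages, followed by Serhl at 0.0321. For Fth1, the member with the widest range of log2(RPKM + 1) over the stages, these were S100a13 at 0.0566 and Bbln at 0.0653. These are the smallest distances from a search of many genes over 6 single libraries. Close profiles found in that way do not show shared regulation, which was not tested.

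**Figure D2:**
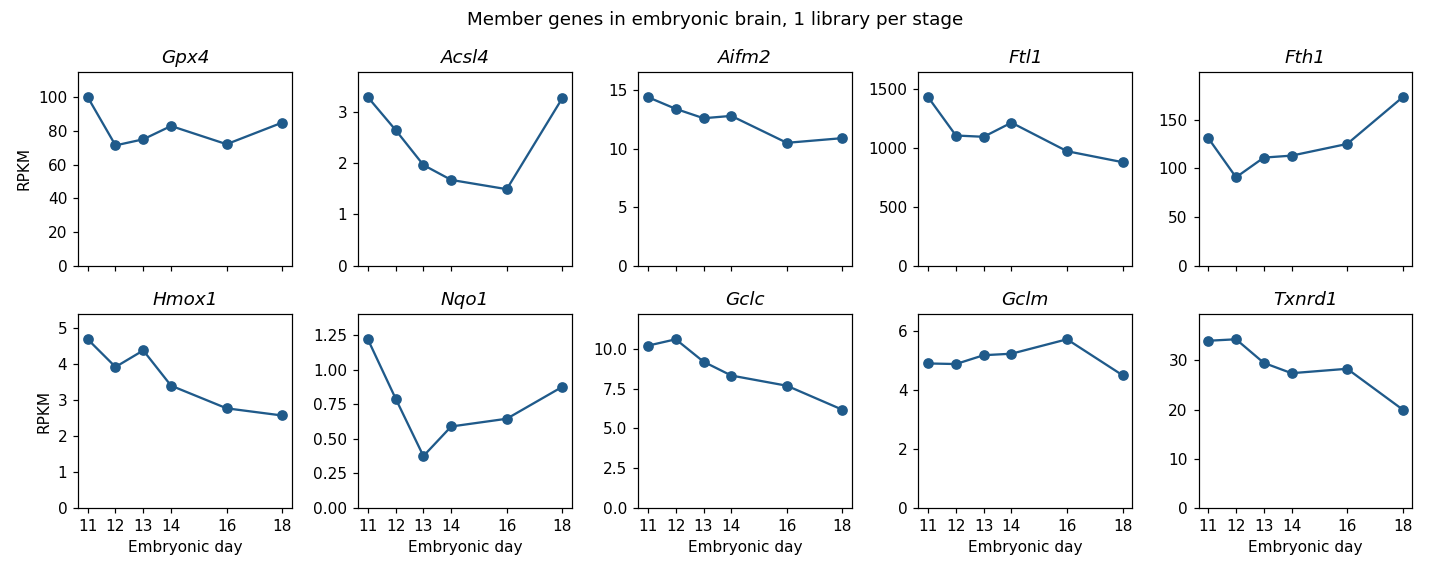
RPKM of each of the 10 genes by embryonic day in wild-type brain, 1 library per stage, each panel on its own linear axis from 0. Gclc, Hmox1 and Txnrd1 have their lowest value at day 18, Acsl4 has its lowest at day 16, and Fth1 is highest at day 18.

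Genes of the same pathways were counted from 8 lists, chosen with earlier results of these data known. Of all 12921 genes tested, 19.6% rose and 25.5% fell over the stages. Counts near these shares do not set a list apart from all genes. Of 15 tested iron-handling genes, 8 fell over the stages and 1 rose. Those that fell included Pcbp1, an iron chaperone that delivers iron to ferritin, with 122 RPKM at day 18 against 269 RPKM at day 11 (slope −0.15, SE 0.02, limma adjusted p = 0.00161), and Cisd2 with 4.30 against 8.94 RPKM (adjusted p = 0.00438). The 1 that rose was Prnp, the prion protein, with 129 against 22.8 RPKM. The glutathione list was divided, with 6 of 24 tested genes higher and 6 lower, among them Mgst3 with a slope of 0.30 per day, Cbs with 0.22 and Cth, which makes cysteine, with −0.19. Of 14 tested thioredoxin and peroxiredoxin genes, 2 rose and 4 fell, including Msra (slope 0.28), Prdx6 (−0.17) and Prdx4 (−0.22). Of 8 NRF2 regulators, 3 rose and 2 fell: Nfe2l2 itself had 1.54 RPKM at day 18 against 3.97 RPKM at day 11 (slope −0.16, SE 0.02, adjusted p = 0.00234), Cul3 had a slope of −0.10 and Sqstm1 had a slope of 0.13. Among 9 genes of selenoprotein synthesis, Selenop rose and Sephs1 and Pstk fell, while of the lipid peroxidation list only Fads2 (of 14 tested) and of the heme list only Abcb6 (of 5 tested) passed, both at 0.08 per day. None of the 4 tested genes of superoxide and peroxide removal passed. The median slope was −0.08 per day for the iron list and 0.00 for the glutathione list, beside −0.02 for all genes. Cell type markers moved over the same stages. Of 8 tested markers of neural stem cells and radial glia, 6 fell and 1 rose, with a median slope of −0.36 per day and summed levels of 602 to 1013 RPKM. Of 9 neuronal markers, 5 rose and none fell (median 0.30, sums of 989 to 2831 RPKM), and of 8 microglia markers 7 rose and none fell (median 0.14, sums of 18.0 to 43.6 RPKM). Their part in the slopes of Gclc, Hmox1 and Txnrd1 was not tested.

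In neural stem cells, none of the 9 members tested was called between NSC-Pex7sh and NSC-Scramble, and neither was any of the 12482 genes tested (0%). Pex7 itself, the target, averaged under 1 RPKM in these libraries and was not among the genes tested. With no filter, 0 of 21873 genes were called, although Pex7 was lower in both NSC-Pex7sh libraries. An absence of calls with 2 libraries per group thus does not show an absence of differences. The unadjusted limma p was under 0.05 for 184 genes, and limma-voom on recovered reads gave 0 calls and 116 such genes. The groups did not overlap for 2 of the 9 tested members, Gpx4 and Acsl4, against 22.5% of all genes tested. Acsl4 had 15.2 and 15.2 RPKM in NSC-Pex7sh and 13.1 and 12.7 RPKM in NSC-Scramble, a log2 difference of 0.22 (SE 0.07) with an unadjusted limma p of 0.0266 and an adjusted p of 1. Gpx4 had 47.8 and 48.2 RPKM in NSC-Pex7sh and 44.2 and 44.5 RPKM in NSC-Scramble, a difference of 0.11 (SE 0.07). Both differences were small, and the test across all genes did not separate them from the spread between libraries.

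Ferritin and heme oxygenase levels in these cells overlapped between the groups. Ftl1 had 347 and 345 RPKM in NSC-Pex7sh and 351 and 335 RPKM in NSC-Scramble. Fth1 had 126 and 122 RPKM against 127 and 117 RPKM, and Hmox1 16.1 and 17.8 RPKM against 18.1 and 16.2 RPKM, in the same order. Their fitted differences were 0.01, 0.02 and −0.02, each with an SE of 0.09. Gclc had 16.1 and 15.3 RPKM in NSC-Pex7sh and 18.0 and 15.0 RPKM in NSC-Scramble. Gclm had 8.44 and 7.46 against 8.17 and 6.99 RPKM, and Txnrd1 had 36.1 and 35.4 against 39.9 and 32.2 RPKM. For these 3, the lower of the NSC-Scramble libraries was replicate 2 each time, and the spread between the control libraries exceeded the difference of the means. Nqo1 had 1.93 and 2.17 RPKM in NSC-Pex7sh and 2.36 and 1.26 RPKM in NSC-Scramble. Aifm2, under the filter, had 0.808 and 0.845 RPKM in NSC-Pex7sh and 0.662 and 0.647 RPKM in NSC-Scramble, from 60 and 65 against 47 and 49 reads. No gene of the 8 related lists was called by limma. Of the 94 tested none had an unadjusted p under 0.05, beside 184 of all 12482 genes tested. With so few over all genes, an absence among 94 does not set the lists apart. By limma-voom none of 93 was called and 1 had an unadjusted p under 0.05, beside 116 over all genes. The list medians lay between −0.10 and 0.05 log2 units, beside 0.00 for all genes.

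In the first overexpression set, ferritin fell and heme oxygenase 1 and the catalytic subunit of glutamate-cysteine ligase rose. Of 8 members tested, 2 rose and 2 fell, while 16.3% of the 11623 genes tested rose and 13.2% fell. The groups did not overlap for all 8 tested members, against 69.3% of the genes tested, so a lack of overlap was common in this set. The median change of the 8 was 0.12 log2 units, beside 0.06 for all genes. Scaling by the upper quartile turned the share of rises among all called genes to 40.2%, against 55.3% as deposited.

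Ftl1 had 1811 and 1828 RPKM in PLA1 and 2634 and 2524 RPKM in Ctrl1. Both PLA1 libraries were lower than either control, and the libraries within each group were close. The mean in PLA1 was 0.705 of that in Ctrl1, a log2 difference of −0.50 (SE 0.06, limma adjusted p = 0.00174). Fth1 had 381 and 375 RPKM in PLA1 and 520 and 482 RPKM in Ctrl1, a ratio of means of 0.755 and a log2 difference of −0.40 (SE 0.07, adjusted p = 0.00559). With every gene above 0 kept in the fit, neither ferritin call held, at adjusted p-values of 0.117 for Ftl1 and 0.0703 for Fth1. The copy Ftl1-ps2 was listed at 59.8 and 66.7 RPKM in PLA1 against 93.8 and 82.2 RPKM in Ctrl1, below Ftl1 itself in every library and lower in PLA1, as Ftl1 was.

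Markers of microglia, cells rich in ferritin, were lower in PLA1 than in Ctrl1, as the ferritin genes were. The summed level over 8 microglia markers was 181 to 190 RPKM in PLA1 and 407 to 443 RPKM in Ctrl1. Of the 8, 7 fell, with a median log2 change of −1.11. Csf1r, the receptor on which microglia depend, had 11.4 and 10.4 RPKM in PLA1 and 31.1 and 35.3 RPKM in Ctrl1. Neuronal markers also differed, with a sum of 1085 to 1166 RPKM in PLA1 and 1941 to 1980 RPKM in Ctrl1, and 7 of 9 fell. Radial glia markers summed to 343 to 345 RPKM in PLA1 and 294 to 311 RPKM in Ctrl1. Endothelial markers summed to 0.849 to 0.946 RPKM in PLA1 and 0.974 to 1.1 RPKM in Ctrl1. In the brain stages, normalised separately, endothelial sums were 23.1 to 47.3 RPKM and microglia sums 18.0 to 43.6 RPKM. The first set, though labelled brain, thus differed from the stages in these markers. Over the stages, 7 of 8 microglia markers rose. Between days 11 and 18, Ftl1 went from 1429 to 878 RPKM and Fth1 from 131 to 173 RPKM. The part of these cell types in the ferritin result was not tested.

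Hmox1 had 25.9 and 28.0 RPKM in PLA1 and 18.4 and 18.9 RPKM in Ctrl1. The groups stood apart by more than the spread within either. The mean was 1.45 times that of Ctrl1, with a log2 difference of 0.51 (SE 0.09, limma adjusted p = 0.00720), and the call held in all 11 alternatives. The mRNAs of heme oxygenase 1, which releases iron, and of ferritin, which stores it, moved in opposite directions in this set. A link between them was not tested.

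Gclc had 2.50 and 4.83 RPKM in PLA1 and 1.62 and 1.53 RPKM in Ctrl1. The PLA1 libraries differed from each other beyond counting error, with Poisson intervals of 2.12 to 2.93 and 4.32 to 5.38 RPKM. The log2 difference was 0.81 (SE 0.25, limma adjusted p = 0.0449), close to the threshold. It was 0.44 with an adjusted p of 0.137 without PLA1 replicate 2, and the call was also lost without Ctrl1 replicate 1 (0.0933), without Ctrl1 replicate 2 (0.0876), without the trend (0.0657) and without the filter (0.197). Gclm had 1.93 and 2.53 RPKM in PLA1 and 1.54 and 1.28 RPKM in Ctrl1, a difference of 0.42 (SE 0.18) that did not pass (adjusted p = 0.127). Both subunits were higher in PLA1 replicate 2 than in replicate 1.

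The remaining members were not called. Gpx4 had 29.7 and 25.5 RPKM in PLA1 and 37.8 and 31.0 RPKM in Ctrl1, a log2 difference of −0.31 (SE 0.12, limma adjusted p = 0.0990). Without Ctrl1 replicate 2 it passed, at −0.45 and an adjusted p of 0.0475. Txnrd1 had 20.8 and 23.0 RPKM in PLA1 and 18.8 and 19.5 RPKM in Ctrl1 (0.18, adjusted p = 0.192). Acsl4 had 5.53 and 5.61 RPKM in PLA1 and 5.23 and 5.37 RPKM in Ctrl1, a difference of 0.06 with an SE of 0.12. Aifm2 and Nqo1 were under the filter. Aifm2 had 0.631 and 0.690 RPKM in PLA1 against 0.593 and 0.623 RPKM in Ctrl1, and Nqo1 had 0.319 and 1.01 RPKM in PLA1 against 1.04 and 0.612 RPKM in Ctrl1, from 8 and 28 against 33 and 20 reads.

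**Figure D3:**
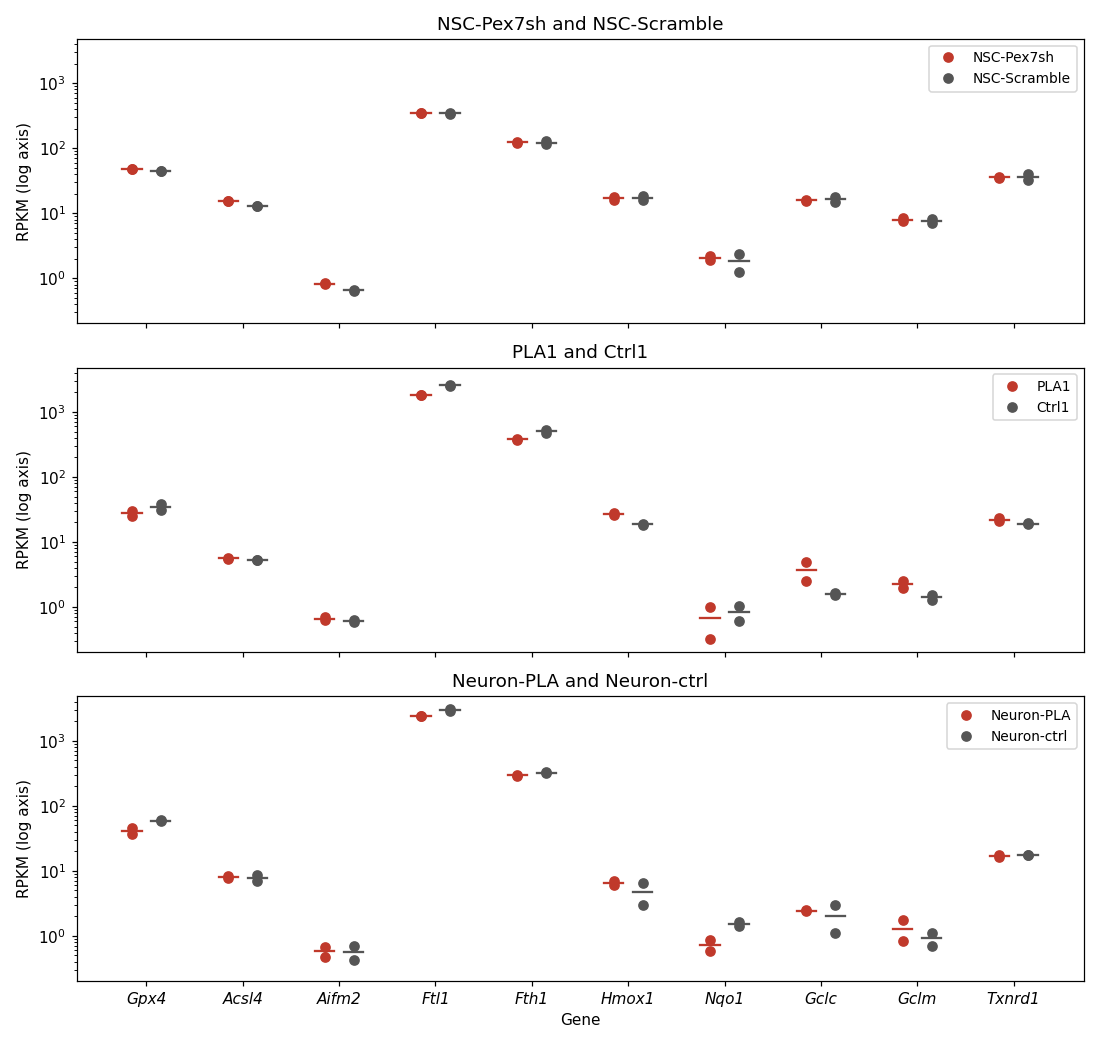
RPKM of the 10 genes on a log axis in NSC-Pex7sh and NSC-Scramble, PLA1 and Ctrl1, and Neuron-PLA and Neuron-ctrl, with 1 point per library and a line at each group mean. Ftl1 and Fth1 lie lower and Hmox1 and Gclc higher in PLA1 than in Ctrl1, while in neural stem cells most points overlap.

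Related genes of glutathione supply and breakdown changed in both directions in this set. Of 21 tested glutathione genes, 4 rose and 6 fell, while 16.3% of all genes tested rose and 13.2% fell. Slc3a2, the heavy chain of the cystine transporter, had 86.4 and 95.4 RPKM in PLA1 and 45.1 and 43.6 RPKM in Ctrl1 (log2 difference 1.02, SE 0.08, limma adjusted p = 0.000374). Cth had 42.3 and 37.7 RPKM in PLA1 and 14.4 and 13.6 RPKM in Ctrl1 (1.45, SE 0.10, adjusted p = 0.000193). Chac1, which degrades glutathione, had 41.4 and 42.1 RPKM in PLA1 and 13.4 and 13.6 RPKM in Ctrl1 (1.56, SE 0.09, adjusted p = 9.6e-05). The 6 glutathione genes that fell were Mgst3, Gpx3, Gstp1, Glrx, Gpx1 and Oplah, with changes of −0.59 to −1.20. The list median was −0.17, beside 0.06 for all genes.

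Of 14 tested thioredoxin and peroxiredoxin genes none rose and 2 fell: Txnip, an inhibitor of thioredoxin, with 9.86 and 8.69 RPKM in PLA1 and 33.9 and 33.0 RPKM in Ctrl1 (−1.75, SE 0.10, limma adjusted p = 0.00012), and Prdx2 with 283 and 270 against 444 and 410 RPKM. Of 7 tested NRF2 regulators, 2 rose and 2 fell. Nfe2l2 had 12.0 and 10.7 RPKM in PLA1 and 7.56 and 7.95 RPKM in Ctrl1 (0.50, SE 0.11, adjusted p = 0.0184). Sqstm1, an autophagy receptor that sequesters the NRF2 inhibitor KEAP1, changed by −0.46, and Mafk, a binding partner of NRF2, by −0.51. The 16 tested iron genes gave 3 rises and 2 falls, while 16.3% of all genes tested rose and 13.2% fell. Tfrc, the transferrin receptor, had 13.7 and 12.3 RPKM in PLA1 and 6.55 and 7.65 RPKM in Ctrl1 (0.80, SE 0.12, adjusted p = 0.00426). Tfrc was higher and the ferritin mRNAs lower in the same libraries, and a link between them was not tested.

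Prnp changed by −0.65 and Cisd1, a mitochondrial iron-sulphur protein, by −0.40. Of 14 tested lipid peroxidation genes 3 rose and 2 fell, beside 16.3% and 13.2% of all genes tested. Cyb5r1, a reductase, had 15.4 and 14.2 RPKM in PLA1 and 6.38 and 7.25 RPKM in Ctrl1 (1.01). Coq2, an enzyme of coenzyme Q synthesis, rose by 0.93, and Por, the electron donor of cytochromes P450, changed by −0.40. Among 9 genes of selenoprotein synthesis, Selenop fell (−1.23) and Eefsec, the elongation factor for selenocysteine, rose (0.64). None of the 4 tested genes of superoxide removal and none of the 3 of heme breakdown was called. The median log2 change was 0.24 for selenoprotein synthesis, 0.19 for iron handling and −0.23 for thioredoxins and peroxiredoxins, beside 0.06 for all genes.

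In the neuron overexpression set, ferritin light chain was the only member called. It fell, as did 0.501% of the 11179 genes tested, while 0.376% of genes and none of the 9 members tested rose. Ftl1 had 2412 and 2398 RPKM in Neuron-PLA and 3040 and 2863 RPKM in Neuron-ctrl. The groups did not overlap, and the ratio of means was 0.815, with a log2 difference of −0.29 (SE 0.04, limma adjusted p = 0.0336). The call was lost when any 1 of the 4 libraries was left out, at adjusted p-values of 0.0539 without Neuron-PLA replicate 2, 0.116 without Neuron-PLA replicate 1, 0.122 without Neuron-ctrl replicate 2 and 0.211 without Neuron-ctrl replicate 1. It was lost too without the trend (0.318) and without the filter (0.355). Fth1 had 282 and 301 RPKM in Neuron-PLA and 317 and 325 RPKM in Neuron-ctrl, a difference of −0.14 (SE 0.06, adjusted p = 0.283).

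Gpx4 had the largest difference of any tested member with separate groups apart from Nqo1. It had 36.9 and 45.6 RPKM in Neuron-PLA and 60.2 and 57.4 RPKM in Neuron-ctrl, a ratio of means of 0.701. The log2 difference was −0.51 (SE 0.11) and missed the threshold (limma adjusted p = 0.0933). Without Neuron-PLA replicate 2 it passed, at −0.66 and an adjusted p of 0.0402. Nqo1 had 0.582 and 0.871 RPKM in Neuron-PLA and 1.41 and 1.63 RPKM in Neuron-ctrl, from 19 and 38 against 49 and 55 reads. Its difference was −0.55 (SE 0.24, adjusted p = 0.298). The groups did not overlap for 4 of the 9 tested members, Gpx4, Ftl1, Fth1 and Nqo1, beside 50.0% of all genes tested.

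The other members overlapped between the groups. Hmox1 had 6.99 and 6.01 RPKM in Neuron-PLA and 6.51 and 2.92 RPKM in Neuron-ctrl. Gclc had 2.38 and 2.47 RPKM in Neuron-PLA and 1.09 and 2.96 RPKM in Neuron-ctrl, and Gclm had 1.76 and 0.820 RPKM against 0.704 and 1.11 RPKM. For Hmox1 and Gclm a single library set most of the spread. For Gclc the Neuron-ctrl libraries lay on either side of both Neuron-PLA libraries. The Gclc levels of the Neuron-ctrl libraries were apart beyond counting error, with intervals of 0.881 to 1.34 and 2.60 to 3.35 RPKM. The log2 difference for Gclc was −0.21 without Neuron-ctrl replicate 1 and 0.71 without Neuron-ctrl replicate 2. Acsl4 had 7.64 and 8.25 RPKM in Neuron-PLA and 6.84 and 8.48 RPKM in Neuron-ctrl, and Txnrd1 had 17.7 and 16.5 against 17.4 and 17.7 RPKM. Aifm2 had 0.474 and 0.673 RPKM in Neuron-PLA and 0.706 and 0.424 RPKM in Neuron-ctrl, and was under the filter. No gene of the 8 related lists was called by limma in this set. Of the 87 tested, 19 had an unadjusted p under 0.05, beside 1976 of all 11179 genes tested, and limma-voom called 2. The list medians were lowest for thioredoxins and peroxiredoxins, at −0.28, and for glutathione genes, at −0.21, beside 0.00 for all genes.

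Cell type markers moved in this set as well. Microglia markers summed to 71.0 to 81.0 RPKM in Neuron-PLA and 122 to 127 RPKM in Neuron-ctrl, with a median log2 change of −0.46 and 1 of 8 called, C1qb. Endothelial markers summed to 1.95 to 2.05 RPKM in Neuron-PLA and 20.9 to 21.4 RPKM in Neuron-ctrl. Most of that sum was Cldn5, a tight junction protein of vessels, with 1.65 and 1.26 RPKM in Neuron-PLA and 18.0 and 17.4 RPKM in Neuron-ctrl (−2.94). It was the only 1 of the 7 endothelial markers tested, and 5 of the 7 averaged under 1 RPKM in Neuron-ctrl. Erythroid markers summed to 30.8 to 40.8 RPKM in Neuron-PLA and 82.3 to 89.0 RPKM in Neuron-ctrl. Most of that sum was Hba-a1, with 25.5 and 37.1 RPKM in Neuron-PLA and 75.9 and 80.8 RPKM in Neuron-ctrl. In each group, 4 of the 7 erythroid markers listed averaged under 1 RPKM. Radial glia markers summed to 163 to 205 RPKM in Neuron-PLA and 313 to 321 RPKM in Neuron-ctrl. Neuronal markers were close, at 3367 to 3523 RPKM in Neuron-PLA and 3442 to 3486 RPKM in Neuron-ctrl. Their part in the Ftl1 value was not tested.

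**Figure D4:**
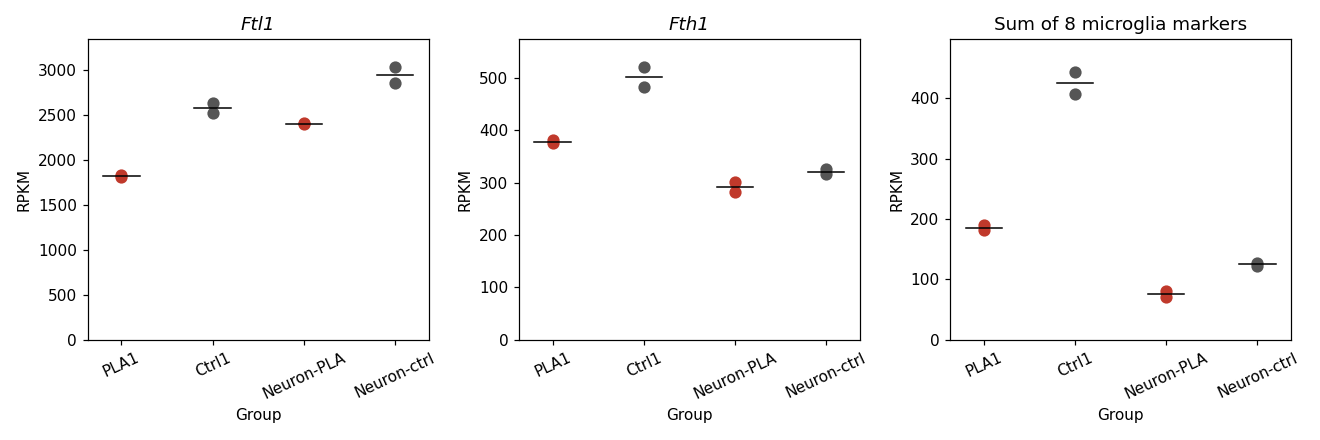
RPKM of Ftl1, of Fth1 and of the sum of 8 microglia markers in PLA1, Ctrl1, Neuron-PLA and Neuron-ctrl, on linear axes from 0, with 1 point per library and a line at the group mean. All 3 are lower in each PLA1 and Neuron-PLA library than in the controls of the same set.

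**Figure D5:**
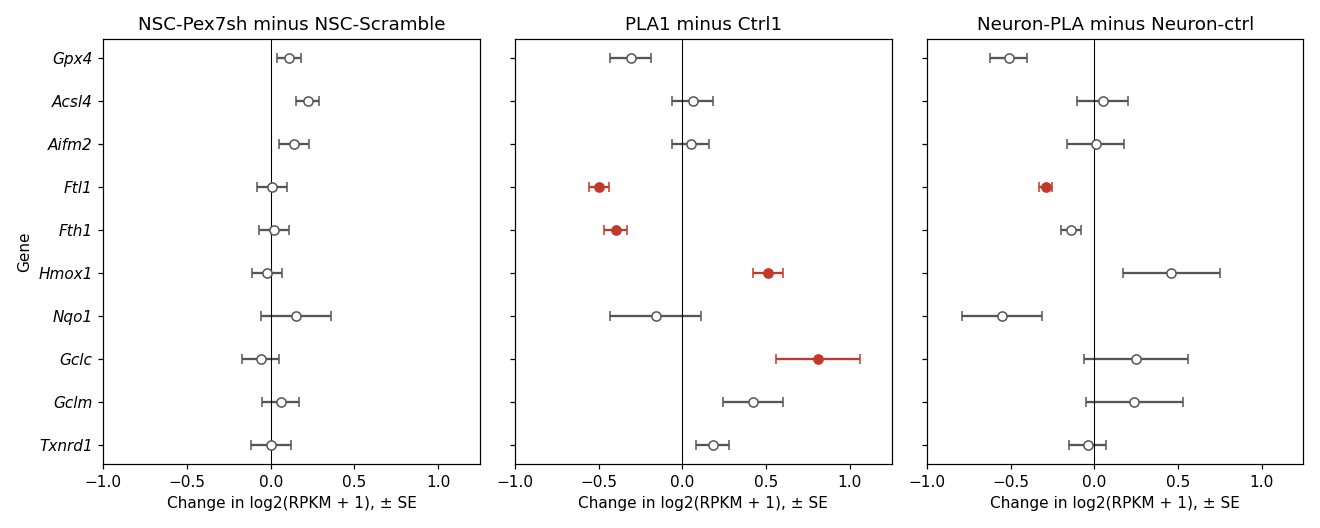
Fitted change in log2(RPKM + 1) of each of the 10 genes, with its standard error, for NSC-Pex7sh minus NSC-Scramble, PLA1 minus Ctrl1 and Neuron-PLA minus Neuron-ctrl. Filled red points passed an adjusted p of 0.05 (Ftl1, Fth1, Hmox1 and Gclc in the first set, Ftl1 in the neuron set), and open points did not or were under the filter.

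Whether a member responded differently in the overexpression sets was tested as an interaction, the change in the neuron set minus the change in the first set. None of the 8 members tested was called by limma, against 11.7% of the 11705 genes tested, and 2 of them, Ftl1 and Fth1, had an unadjusted p under 0.05. Of those 11705 genes, 3224 had an unadjusted p under 0.05. The Ftl1 change was 0.21 log2 units less negative in the neuron set (SE 0.07, limma adjusted p = 0.0886) and the Fth1 change 0.26 (SE 0.09, adjusted p = 0.0872). With limma-voom on recovered reads both passed, at 0.26 with an adjusted p of 0.0159 for Ftl1 and 0.32 with 0.0215 for Fth1. The interaction was −0.20 for Gpx4 (SE 0.18), −0.56 for Gclc (SE 0.43, adjusted p = 0.447) and −0.04 for Hmox1 (SE 0.34), so the calls made in the first set alone are not shown to be absent from the neuron set.

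Of 88 tested genes of the related lists, 9 differed between the sets, 4 of them in the glutathione list and none in the iron list. Nfe2l2 was higher in PLA1 than in Ctrl1, as given above, but had 1.92 and 1.38 RPKM in Neuron-PLA and 3.71 and 3.82 RPKM in Neuron-ctrl, an interaction of −1.35 (SE 0.21, limma adjusted p = 0.00362). Cth had 0.870 and 0.102 RPKM in Neuron-PLA and 2.37 and 1.02 RPKM in Neuron-ctrl (−2.31, SE 0.39, adjusted p = 0.00523). Slc3a2 had 34.3 and 33.9 RPKM in Neuron-PLA and 39.7 and 38.2 RPKM in Neuron-ctrl (−1.20, SE 0.11, adjusted p = 0.000369). None of these 3 was called within the neuron set. Chac1 had 5.73 and 4.69 RPKM in Neuron-PLA and 5.38 and 3.94 RPKM in Neuron-ctrl (−1.42, adjusted p = 0.00253). Txnip had 11.9 and 14.8 RPKM in Neuron-PLA and 11.6 and 8.98 RPKM in Neuron-ctrl (2.10, adjusted p = 0.000387). The interaction was 0.49 for Sqstm1, −1.0 for Cyb5r1 and −0.64 for Sephs2, all called.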

How the data were processed

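RNA was measured in 18 mouse libraries, grouped by their labels. Per the submitters' processing notes, STAR 2.7.9a, HTSeq 0.6.0 and mm10 were used; the annotation and strand setting are not given in the sources used here. The deposited values were RPKM from the authors, 1 table per experiment. RPKM times the merged exon length in GENCODE M21 and a read total gave whole reads, within 0.01, for 97.5% to 97.8% of nonzero values. The 10 members, the 8 related lists and the markers were chosen with earlier results of these data known. Tests were run in R 4.3.3 on log2(RPKM + 1) by limma 3.58.1, whose variance prior followed a trend with expression, on genes averaging at least 1 RPKM, each pair of groups within its table, the slope over 6 stages, and the interaction over 8 libraries. limma-voom on recovered reads was an alternative to the test on RPKM. The fits were tested on simulated data. All members were named, and up to 3 called genes of smallest adjusted p per related list and comparison. The glutathione genes that fell in the first overexpression set were also named. Among the genes compared, no value above 0 was identical between the 2 libraries of a group.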

Additional observations from a re-analysis of the deposited data

How the results depend on the processing

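Of 521 values of members under alternatives, 452 kept their direction and side of the threshold, 17 lost a call, 10 gained one, 42 changed sign without being called in the main fit, and none of the called values reversed. Calls over all genes depended on the filter and the libraries. With no filter, 1177 genes were called in the first overexpression set (1 member, Hmox1), 0 in the neuron set (0 members) and 761 in the difference between sets. In the neuron set, 4 genes (0 members) were called without the trend and 320 with limma-voom, which also called 2 members in the difference. Leaving out each library in turn gave 1575 to 3294 genes (3 to 4 members) in the first set, 7 to 163 (0 to 1 members) in the neuron set, 2537 to 5485 (1 to 4 members) for the slope, 636 to 1218 for the difference and 0 for the knockdown.

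The share of rises among called genes was 42.9% in the neuron set against 53.4% with limma-voom. No source says that replicate numbers pair the libraries. Same-numbered deviations correlated weakly, at 0.0101 for the knockdown, 0.0991 in the first overexpression set and 0.0468 in the neuron set. With the replicate block, 1 gene was called for the knockdown, against 0 without it, and 54 in the neuron set, against 98. In the first set 4297 genes were called with the block, against 3438, and Gpx4 passed (limma adjusted p = 0.0197). Nqo1, with 8 to 99 reads a library, and Aifm2 outside the stages, with 38 to 78 reads, rest on few reads. The causes of these changes were not tested.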
